A study of Mus musculus with 32 samples.

Results

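Crypts that lack both Pygopus paralogs were compared with crypts of wild-type mice that carry the same Cre driver. The comparison used the 3 arrays titled Pygo1/2 DKO crypt and the 3 arrays titled wt crypt (villin.Cre/+), 6 of the 32 arrays of the series, and it is described across all genes. The Pygo1/2 DKO (double knockout) mice were Pygo1-/-, Pygo2 LoxP/LoxP, villin.Cre/+, and the controls were wild type for these genes but also villin.Cre/+. All were 120 days old, labelled C57BL/6J, and run in the first of 2 batches. Pygo1 is null in every cell of these animals, whereas Pygo2 is deleted only where villin.Cre acts, which is the intestinal epithelium. The study's methods give 4 generations of back-crossing into C57BL/6 for tests in the ApcMin model, the final cross being with ApcMin/+. They do not say whether this holds for these crypt mice. Per the same methods, crypts were released from the small intestine with EDTA, and RNA from several extractions of a mouse was usually combined. Since no label ties an array to a mouse, replicates may be technical, and every p-value refers to the spread among these arrays alone. On the bead arrays used (Illumina MouseWG-6 v2.0), each probe binds a short stretch of a transcript, and a level is a normalized log2 intensity. In bulk samples of this kind, fewer cells of a type and less RNA per cell cannot be told apart.

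Pygo proteins read histone H3 tails through their PHD fingers and bind BCL9 and its paralog B9L, which in turn bind β-catenin. Together they form part of the Wnt enhanceosome, the complex through which TCF/LEF factors and β-catenin switch on Wnt target genes. In the small intestine, Wnt signals maintain the stem cells at the crypt base and their dividing progeny. They also sustain the Paneth cells between them, which secrete antimicrobial α-defensins (cryptdins) from granules.

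The 6 arrays detected 12913 to 13760 of 45281 probes at a detection p under 0.01, and their levels correlated pairwise with r of 0.955 to 0.988 across the 15375 probes tested. Of 28 epithelial markers tested, 24 were detected on all 6 arrays, among them Epcam, Cdh1, Vil1, Lyz1 and Muc2, as the tissue label requires. Ascl2, Lgr5 and Fcgbp were detected on 1, 1 and 2 of the 6 arrays, so these markers had little signal. Among markers of other cells, the summed linear intensity of 3 haemoglobin genes was 233 to 1035 in DKO crypts against 1111 to 1603 in controls. That of 7 pancreatic acinar genes was 3861 to 5727 against 7535 to 8934, a sum carried by Clps and Rnase1, the 2 of the 7 that lay lower without overlap, while 4 of the 7 had a change above 0 and the median was 0.05. That of 2 endothelial genes was 50.4 to 90.8 against 115 to 141. Of the 6 haemoglobin, 17 acinar and 12 endothelial list genes detected somewhere in the series, 3, 7 and 2 were detected on at least 1 of these 6 arrays. On all 6 arrays, 3, 4 and 0 were detected. Of the 2 endothelial genes, Egfl7 was detected in no DKO array and Esam in 1, so their sum in DKO crypts is near background. The sum of 3 mast cell genes was likewise lower (145 to 240 against 278 to 280). It was carried by Kit (change -0.83), the only gene of the 3 that lay lower without overlap. The median of the 3 was -0.13, and 1 had a change above 0. The sum of 3 fibroblast genes, carried by Fbln1 (change 0.23), was 5443 to 5693 against 4566 to 5046 with the other 2 genes below 0. The ranges overlapped for lymphocyte, myeloid and smooth muscle genes.

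The targeted genes were read first. Pygo2 stood at 8.19, 8.47 and 7.80 in the 3 DKO arrays and at 9.83, 9.88 and 9.60 in the 3 controls. The groups did not overlap, and Pygo2 fell by 1.61 ± 0.20 on the log2 scale (SE, 3 against 3 arrays; limma, Benjamini-Hochberg adjusted p = 0.028 over all probes). Leaving out 1 array moved the change of Pygo2 only between -1.77 and -1.44, but its adjusted p rose above 0.05 without DKO array 1 or 3 or without control array 1 or 2, to 0.209 at most. The Pygo1 probe was detected on 1 control array and on no DKO array, with levels of 4.96 to 5.62 against 5.18 to 5.70, so it gives no check of that deletion. The paralogous partners Bcl9 and Bcl9l differed by -0.01 ± 0.19 and 0.13 ± 0.15 (adjusted p = 0.986 and 0.684).

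At an adjusted p of 0.05, 41 of the 15375 probes passed (0.267%). In DKO crypts 21 of them were higher (0.137%) and 20 lower (0.13%). At an unadjusted p under 0.05 there were 2706. The 41 probes comprise 33 probes of 31 genes, 12 of them higher and 19 lower, and 8 probes with no gene name here. For all 41 the 3 DKO arrays lay entirely on one side of the 3 controls. Leaving out each array in turn left between 9 and 39 passing probes, and 9 of the 41 passed in all 6 of these fits: both probes of Defa31, AY761185, Sis, Pclaf and 4 unnamed probes. The genes described below otherwise passed with the full set of arrays, and 12 of the 41 probes passed in none of the reduced fits. No probe changed direction, but with groups that do not overlap a left-out array could hardly change it.

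**Figure D1:**
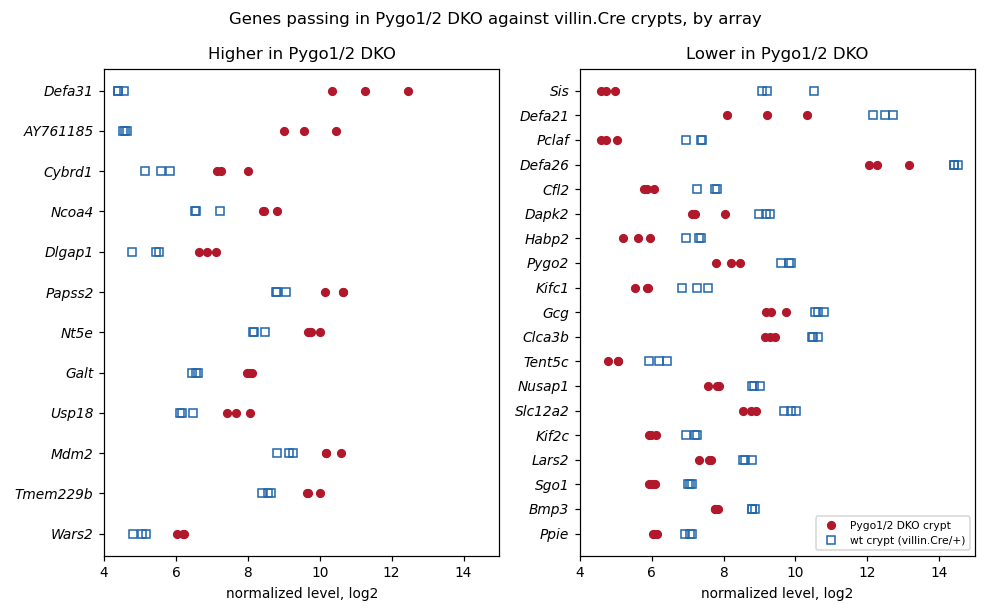
Normalized log2 level (horizontal axis) of each gene with a passing probe, 1 row a gene and 1 probe each, in the 3 Pygo1/2 DKO crypt arrays (filled circles) and the 3 villin.Cre crypt arrays (open squares). In no row do the groups overlap, and the widest gap in the higher panel is that of Defa31, at 10.35 to 12.46 in DKO crypts against 4.39 to 4.55 in controls.

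The α-defensins moved in both directions. Defa31, an α-defensin gene on chromosome 8, stood at 11.27, 12.46 and 10.35 in DKO crypts, and at 4.39, 4.39 and 4.55 in controls, in none of which it was detected. Its second probe read 11.11, 12.45 and 10.23 against 4.48, 4.65 and 4.73. Every DKO array was thus far above background and every control at background, and Defa31 rose at least 56.2-fold by the first probe and at least 52.7-fold by the second (adjusted p = 0.000647 and 0.000944; the bound sets the DKO mean against the lowest detectable signal of each control array).

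AY761185, a gene of the same region that the naming rule left out and that was chosen after its values were seen, behaved likewise. Its levels were 9.55, 10.46 and 9.01 against 4.53, 4.62 and 4.59, with no control array above background. AY761185 rose at least 17.5-fold (adjusted p = 0.000647). On both genes DKO array 2 was the highest and DKO array 3 the lowest.

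Other α-defensins fell. Defa21 read 10.32, 8.10 and 9.21 in DKO crypts against 12.71, 12.50 and 12.16, a change of -3.25 ± 0.48 (adjusted p = 0.0468). Defa26 read 13.16, 12.28 and 12.04 against 14.41, 14.43 and 14.52, a change of -1.96 ± 0.27 (adjusted p = 0.0389). The controls were tight on both genes, whereas the DKO arrays spread over more than 1 log2 unit. Defa39 read 11.86, 10.09 and 10.21 against 13.03, 13.20 and 12.89, and its change of -2.32 ± 0.42 did not pass (adjusted p = 0.0748).

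Defa23 overlapped between groups, at 12.92, 11.68 and 11.63 against 12.67, 12.68 and 13.25 (change -0.79 ± 0.35, adjusted p = 0.288). Of the 3 probes each of Defa20 and Defa3, 2 of either gene differed by 0.37 or less, and the third Defa3 probe read 9.45, 8.24 and 8.05 against 9.61, 9.28 and 10.46 (change -1.20 ± 0.41, adjusted p = 0.194). The third Defa20 probe read 11.28, 4.57 and 10.50 against 13.34, 13.95 and 13.82, so that DKO array 2, the highest for Defa31, was at background here. Its change of -4.92 ± 1.48 did not pass (adjusted p = 0.151). The genes of this family are nearly identical in sequence, a probe may bind several of them, and a probe's level cannot be assigned to 1 gene with certainty. Of the 30 α-defensin and cryptdin-related genes listed, 7 were tested, of which 1 rose and 2 fell.

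The 250 bases before the RefSeq transcription start (GRCm38.p6) are printed for 4 of these defensins that rose, fell or did not pass, for AY761185, and for Sis, described below, since the sequences of genes that moved in opposite directions are close to each other. They run from 5′ to 3′ on the strand of the gene. Capitals mark the TCF/LEF hexamers TCAAAG and ACAAAG, which were searched on both strands (CTTTGA and CTTTGT on the other strand) and overlap no other match.
Defa31: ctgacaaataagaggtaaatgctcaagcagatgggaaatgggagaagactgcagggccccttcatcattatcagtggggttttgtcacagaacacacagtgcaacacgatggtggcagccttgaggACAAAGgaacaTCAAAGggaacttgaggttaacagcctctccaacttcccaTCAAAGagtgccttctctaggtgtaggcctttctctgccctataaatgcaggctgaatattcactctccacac
Defa23: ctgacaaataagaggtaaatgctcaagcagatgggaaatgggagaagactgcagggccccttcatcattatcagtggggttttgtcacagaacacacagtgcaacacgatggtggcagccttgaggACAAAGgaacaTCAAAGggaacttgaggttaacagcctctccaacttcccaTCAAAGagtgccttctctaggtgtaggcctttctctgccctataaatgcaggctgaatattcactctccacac
Defa21: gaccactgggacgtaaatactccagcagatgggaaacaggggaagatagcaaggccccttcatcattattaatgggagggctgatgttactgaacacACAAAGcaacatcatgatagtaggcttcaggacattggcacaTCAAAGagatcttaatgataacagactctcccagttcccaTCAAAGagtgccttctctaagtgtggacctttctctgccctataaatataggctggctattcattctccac
Defa20: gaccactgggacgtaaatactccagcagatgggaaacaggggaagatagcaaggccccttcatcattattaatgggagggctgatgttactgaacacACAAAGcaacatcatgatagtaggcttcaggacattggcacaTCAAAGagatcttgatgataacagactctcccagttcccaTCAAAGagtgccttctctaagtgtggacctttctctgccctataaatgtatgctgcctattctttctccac
AY761185: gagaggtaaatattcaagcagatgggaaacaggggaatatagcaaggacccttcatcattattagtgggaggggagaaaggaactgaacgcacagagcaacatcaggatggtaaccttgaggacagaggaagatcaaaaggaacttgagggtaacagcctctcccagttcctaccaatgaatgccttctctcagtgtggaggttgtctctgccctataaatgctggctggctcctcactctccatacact
Sis: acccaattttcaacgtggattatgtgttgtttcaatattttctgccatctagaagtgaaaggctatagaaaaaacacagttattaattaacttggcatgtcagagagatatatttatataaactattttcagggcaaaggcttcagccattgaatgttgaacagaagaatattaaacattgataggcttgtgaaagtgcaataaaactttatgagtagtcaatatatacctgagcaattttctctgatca
Defa31 lies on the plus strand at chr8:21191323-21191572, Defa23 on the plus strand at chr8:21054790-21055039, Defa21 on the plus strand at chr8:21025295-21025544 and Defa20 on the plus strand at chr8:21509008-21509257. AY761185 lies on the minus strand at chr8:20944749-20944998, and Sis on the minus strand at chr3:72967864-72968113. The windows of Defa31 and Defa23 were identical over all 250 bases, although Defa31 rose at least 56.2-fold and Defa23 did not pass. Those of Defa21 and Defa20 shared 245 of 250 bases, and Defa31 and Defa21, which moved in opposite directions, shared 199. Each of these 4 windows held 1 ACAAAG and 2 TCAAAG. In Defa31 they began 124, 113 and 73 bases before the start, and in Defa21 153, 111 and 71 bases before it. AY761185, which rose, held none in its window, although 196 of its 250 bases aligned to those of Defa31, and the Sis window held none. A match of this kind occurred in 27.6% of 32851 promoter windows of the same length, and 3 or more matches in 0.776%. The 4 defensin windows belong to 1 family of similar genes and were picked with their changes known. They are therefore not separate cases to set against these shares.

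Among the genes of enterocytes, Sis, which encodes the brush border disaccharidase sucrase-isomaltase, had the steepest fall on 1 of its probes. That probe read 4.72, 4.60 and 4.98 in DKO crypts, in none of which it was detected, against 9.21, 9.06 and 10.51. It fell at least 15.2-fold (adjusted p = 0.00111). The other and much brighter Sis probe read 14.61, 14.55 and 14.63 against 14.49, 14.54 and 14.56, a change of 0.06 with an interval of -0.24 to 0.37 (adjusted p = 0.841). The 2 probes of Sis thus differ in what they show, and the fall is that of 1 probe, not of the gene as a whole.

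The neighbourhoods of the targeted loci held several of the passing genes. Pclaf encodes the PCNA-associated factor of replicating cells, and Dapk2 a calmodulin-regulated kinase. Both lie, with Nt5e, among the 200 coding genes on either side of Pygo1 on chromosome 9. Pclaf read 4.74, 4.59 and 5.03 in DKO crypts, undetected in all 3, against 7.36, 7.40 and 6.96, and it fell at least 2.98-fold (adjusted p = 0.00137). Dapk2 read 7.21, 7.11 and 8.03 against 9.17, 9.29 and 8.99 (change -1.69 ± 0.25, adjusted p = 0.0468).

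Nt5e, the ectonucleotidase CD73, which makes extracellular adenosine, read 9.76, 10.02 and 9.67 against 8.13, 8.16 and 8.48. It rose by 1.56 ± 0.17 (adjusted p = 0.0149), and its second probe by a smaller 0.97 ± 0.21 that did not pass (adjusted p = 0.0901). Around Pygo1, 3 of 291 probes passed, or 1.03%, and around Pygo2, 2 of 280, or 0.714%, which were those of Pygo2 and Sis. Leaving out the targeted genes themselves, 3 of 290 (1.03%) and 1 of 279 (0.358%) passed, against 0.267% of all probes. On the whole of chromosomes 3 and 9, which hold Pygo2 and Pygo1, 5 of 665 and 4 of 742 probes passed. What part position had in these neighbours was not tested.

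Of the 12 higher genes, 2 have roles in iron handling, a grouping made after their values were seen. Cybrd1, the ferric reductase of the duodenal brush border, read 7.14, 7.99 and 7.24 against 5.58, 5.13 and 5.83 (change 1.95 ± 0.27, adjusted p = 0.0389). Its dimmer probe was undetected in controls and did not pass (adjusted p = 0.0819). Ncoa4, the receptor that delivers ferritin for breakdown, rose on 2 of its 3 probes, by 1.78 ± 0.22 and 1.57 ± 0.20 (adjusted p = 0.0302 and 0.0339). The third Ncoa4 probe differed by 1.89 ± 0.29 (adjusted p = 0.0523). Galt, an enzyme of galactose breakdown, read 8.03, 8.12 and 7.98 against 6.55, 6.62 and 6.46 on its passing probe (2.83-fold higher, adjusted p = 0.00589). Its other probe differed by 0.14 (adjusted p = 0.655), so that the rise of Galt rests on 1 probe.

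Papss2, which makes the sulfate donor PAPS, rose by 1.60 ± 0.18 on its passing probe. Its brighter probe differed by 0.81 ± 0.18 (adjusted p = 0.0939). Usp18, which removes the interferon-induced modifier ISG15, rose by 1.46 ± 0.20 on its passing probe. The brighter Usp18 probe differed by 1.05 ± 0.28 (adjusted p = 0.125). Tmem229b rose by 1.25 ± 0.16, and its dimmer probe, undetected in controls, did not pass (adjusted p = 0.149). The synaptic scaffold gene Dlgap1 rose by at least 2.49-fold from undetected controls. Wars2, the mitochondrial tryptophanyl-tRNA synthetase, was likewise undetected in controls and rose at least 1.52-fold. Mdm2, the ubiquitin ligase for p53, rose by 1.25 ± 0.19 on 1 probe, with 0.13 on the other (adjusted p = 0.723). Adjusted p-values of the passing probes in this group lay between 0.0191 and 0.0478.

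Of the 19 lower genes, 4 have roles in mitosis, a grouping made after their values were seen. Kif2c and Kifc1, kinesins of the mitotic spindle, fell by 1.13 ± 0.15 and 1.46 ± 0.21 on the log2 scale. Nusap1, which binds spindle microtubules, fell by 1.14 ± 0.16, and Sgo1, the shugoshin that guards cohesion of sister chromatids, fell by 1.06 ± 0.14 (adjusted p = 0.034 to 0.0468 for the 4). All 4 passed in the full set, and of them only Kif2c passed in any fit with 1 array left out, in 1 of the 6.

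The other lower genes have varied roles. Slc12a2, the basolateral Na-K-2Cl cotransporter of crypt cells, fell by 1.13 ± 0.17 on the passing probe, and its brighter probe differed by -1.05 ± 0.17 (adjusted p = 0.0582). Gcg, whose product proglucagon yields GLP-1 in enteroendocrine L cells, read 9.73, 9.33 and 9.18 against 10.63, 10.80 and 10.54 (change -1.24 ± 0.18, adjusted p = 0.0468). Bmp3, a ligand of the BMP family, fell by 1.03 ± 0.14, with arrays at 7.86, 7.75 and 7.77 against 8.80, 8.88 and 8.80. Cfl2, an actin-severing cofilin, fell by 1.70 ± 0.19. Clca3b fell by 1.24 ± 0.15, Habp2, a secreted serine protease, by 1.61 ± 0.22, and Lars2, the mitochondrial leucyl-tRNA synthetase, by 1.12 ± 0.16. Tent5c, a non-canonical poly(A) polymerase, fell at least 1.44-fold to undetected levels, and Ppie, a spliceosomal cyclophilin, fell by 0.94 ± 0.14. The brighter Ppie probe differed by -0.83 ± 0.25 (adjusted p = 0.156). Of the 31 genes, 13 had more than 1 tested probe. Every tested probe passed for Defa31 alone, and the probes had the same sign for 12 of the 13, Sis being the exception.

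Probes without a gene name here held the steepest rises. ILMN_2710914 read 12.63, 13.66 and 12.02 against 4.42, 4.49 and 4.49, and ILMN_2524846 read 12.69, 13.71 and 12.02 against 4.83, 4.74 and 5.05. Neither was detected in any control, and they rose at least 149-fold and 153-fold (adjusted p = 6.21e-05 and 8.04e-05). As with Defa31, DKO array 2 was the highest. Of 8 unnamed passing probes, 7 were higher, and ILMN_1235443 was lower, by 2.21 ± 0.29 on the log2 scale.

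Lists of genes were described by 1 probe a gene, the brightest. Over all 8958 genes the median change was -0.02. For 792 genes (8.84%) the 3 DKO arrays lay above all 3 controls, and for 1361 (15.2%) below them, and list counts are read against these shares. Few members of any list passed the test, so the counts that follow describe where the arrays lie.

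Ribosomal protein and histone H2A genes were mostly lower, although none passed. These lists include genes the study picked out on these same arrays and are not independent evidence of their direction. Of 52 cytosolic ribosomal protein genes, 43 lay lower without overlap (82.7%) and 1 higher, with a median change of -0.46. Rps15 differed by -0.98 ± 0.21 and Rplp0 by -0.86 ± 0.18 (adjusted p = 0.085 for both). Of 19 histone H2A genes, 15 lay lower without overlap (78.9%), with a median of -0.60. H2ac11, the nearest to passing, differed by -0.93 ± 0.16 (adjusted p = 0.0697).

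Stem cell and proliferation genes lay lower as well. Of 13 stem cell genes tested, 7 lay lower without overlap (53.8%) and none higher, with a median of -0.74. Olfm4, a marker of crypt base columnar cells, read 9.74, 9.34 and 8.90 against 10.22, 10.92 and 10.55 (change -1.24 ± 0.26, adjusted p = 0.085). Lrig1, an inhibitor of ErbB receptors on stem cells, differed by -0.87 ± 0.15 (adjusted p = 0.0697). Lgr5, the R-spondin receptor, was at 4.59 to 4.67 against 5.23 to 5.53, with 1 of the 6 arrays above background, so that no size of a difference can be given. Of 17 proliferation genes, 9 lay lower without overlap (52.9%), with a median of -0.67. Top2a, the topoisomerase of dividing cells, differed by -0.83 ± 0.15 and Mcm5, a subunit of the replicative helicase, by -1.03 ± 0.20 (adjusted p = 0.0772 and 0.0849).

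Among genes of the Wnt pathway itself, only the deleted Pygo2 passed of 20 tested, and the median was 0.02. Of 9 Wnt target genes none passed, 2 lay lower without overlap, and the median was -0.58. Axin2, the feedback inhibitor that is the most general of these targets, read 8.10, 8.79 and 8.10 against 8.93, 9.56 and 8.72. Its groups overlapped, and the change of -0.74 had an interval of -1.36 to -0.12 (adjusted p = 0.218). Cd44, Sox9 and Ccnd1 differed by -0.60, -0.58 and -0.65 (adjusted p of 0.227 to 0.272).

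Of 17 further Paneth cell genes, all 17 had a change below 0 and 11 lay lower without overlap (64.7%), with a median of -0.96 and none passing. Ang4, a microbicidal ribonuclease, read 11.25, 10.98 and 9.39 against 12.44, 12.62 and 12.46 (change -1.96 ± 0.43, adjusted p = 0.0866). Reg4, a lectin that the enteroendocrine list also holds, was undetected in DKO crypts and at least 1.53-fold below the controls, and Nupr1 differed by -1.28 (adjusted p = 0.0819 and 0.0849, neither passing). The brightest lysozyme probe (Lyz1) read 14.86, 14.77 and 14.18 against 14.83, 14.71 and 14.85, with overlapping groups. The lower haemoglobin and endothelial sums given above move with these lower lists, the endothelial one near background in DKO crypts. So does the acinar sum, although the acinar list does not lie lower as a whole. Its brightest gene, Clps, is also in the Paneth list. The part of these sums was not tested.

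**Figure D2:**
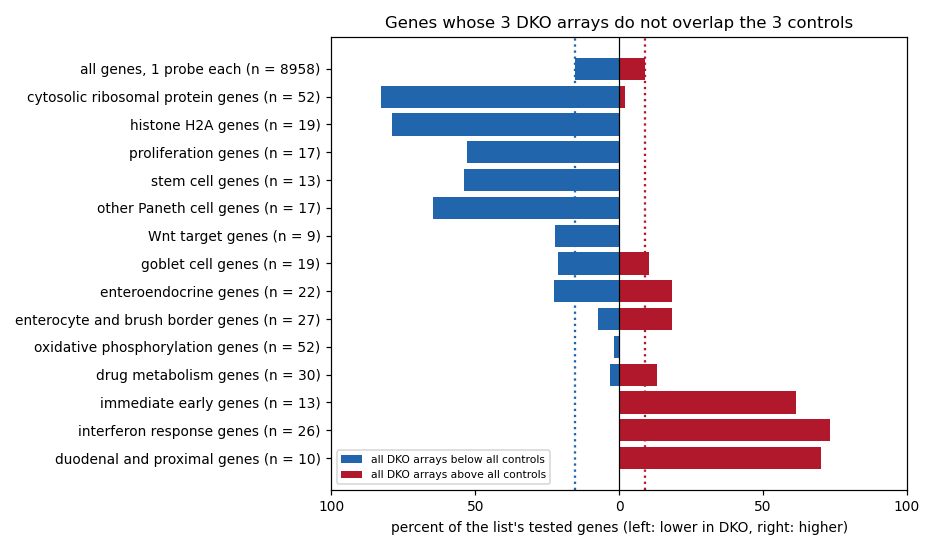
Percent of the tested genes of each list (n beside its name, 1 probe a gene) whose 3 DKO arrays lie below (left bars) or above (right bars) all 3 villin.Cre arrays. The dotted lines are the shares over all 8958 genes, 15.2% lower and 8.84% higher; the ribosomal protein list reaches 82.7% on the left and the interferon list 73.1% on the right.

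Interferon response genes lay higher. All 26 had a change above 0, 19 lay higher without overlap (73.1%), the median was 0.82, and none passed on its brightest probe. Ifit3, which binds foreign RNA with its partners, read 10.03, 9.94 and 10.76 against 8.82, 8.53 and 9.16 (change 1.41 ± 0.26, adjusted p = 0.0748). Oas1g and Oas2, of the family of 2-5A synthetases, did not pass either, with 0.91 ± 0.18 for the first and at least 1.44-fold for the second, which was undetected in controls (adjusted p = 0.0819 and 0.085). DKO array 3 was the highest on Ifit3 and on Oas2. The summed intensity of 6 myeloid genes was 1171 to 1436 in DKO crypts and 715 to 1242 in controls, and its part was not tested.

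Of 10 genes of the duodenum and proximal intestine, 7 lay higher without overlap (70%), 1 passed (Cybrd1), and the median was 0.85. Slc40a1, which encodes the iron exporter ferroportin, read 12.55, 13.68 and 13.43 against 11.99, 11.32 and 12.10 (change 1.42 ± 0.32, adjusted p = 0.0922). Pdx1, a transcription factor of the duodenum, differed by 1.58 ± 0.37 and Onecut2 by 1.26 ± 0.27 (adjusted p = 0.0993 and 0.0861). Slc11a2, the apical iron importer, read 11.18, 9.59 and 8.95 against 8.88, 8.22 and 7.98 (adjusted p = 0.184). The 8 ileal genes had a median of -0.31, with 2 lower without overlap. How much of each sample came from which stretch of the intestine cannot be told from the labels, and its part was not tested.

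Among differentiated lineages other than Paneth cells, Gcg alone passed on the brightest probe of its gene. Of 27 enterocyte genes, 5 lay higher and 2 lower without overlap, with a median of 0.09. Of 19 goblet cell genes, 2 lay higher and 4 lower, with a median of 0.06, and Muc2, the main intestinal mucin, differed by 0.06 ± 0.30. Of 22 enteroendocrine genes, 4 lay higher (18.2%) and 5 lower (22.7%) without overlap, and the median was 0.00, with Pyy at -0.85 ± 0.18 and Chgb at 0.59 ± 0.14 (adjusted p = 0.0849 and 0.0956). Of 8 tuft cell genes, 7 had a change below 0 and 3 lay lower (37.5%), with a median of -0.26 and Trpm5, the cation channel of taste transduction, at -0.41 (adjusted p = 0.249). Of 52 oxidative phosphorylation genes, 1 did not overlap, with a median of 0.01.

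The other crypt groups show how these differences vary with the samples they are set against. Set against 3 crypt samples of wt mice without Cre, in a fit of all 12 crypt arrays, Pygo1/2 DKO crypts had 18 passing probes of 16299 (0.11%), 10 higher and 8 lower. The DKO arrays are shared with the first comparison, and 13 of its 41 probes passed here. This fit differs from the first in its arrays and its estimate of spread, so the number passing does not depend on the control alone. Against villin.Cre crypts, too, fewer of the 41 passed in the fit of 12 arrays, as given below. Against Cre-free crypts, Pygo2 and Dapk2 both differed by -1.69 (adjusted p = 0.00248 and 0.0138). Pclaf was at least 2.48-fold and the passing Sis probe at least 14.7-fold lower, and Defa31 was at least 56.2-fold higher (adjusted p = 0.00256, 9.18e-06 and 6.46e-07). For 6 of the genes described above the change shrank by more than 1.5 times and did not pass. Usp18 differed by 0.58, Tmem229b by 0.61 and Nt5e by 0.99, and Bmp3, Gcg and Cfl2 by -0.45, -0.73 and -0.91 (adjusted p of 0.239 to 0.447). The interferon genes had a median of 0.37 here and 0.82 against villin.Cre crypts. The ribosomal, stem cell, Paneth and duodenal medians were -0.39, -0.72, -0.79 and 0.66.

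In Bcl9/B9l DKO crypts the partners of Pygo are deleted instead, since both Bcl9 and B9l are LoxP/LoxP in these villin.Cre/+ mice. Against these 3 samples 39 of 16299 probes passed (0.239%), of which 21 were higher in Pygo1/2 DKO crypts. Defa31 stood at 4.48 to 4.51 in them and AY761185 at 4.49 to 4.59, at background as in both wt groups. Pygo1/2 DKO crypts were at least 54.7-fold and 17.1-fold higher (adjusted p = 5.91e-07 and 5.40e-07). Pclaf was at least 2.66-fold lower in Pygo1/2 DKO crypts, and Dapk2 differed by -1.93 ± 0.24 (adjusted p = 0.00127 and 0.00276). Of the 41 probes, 11 passed here. The passing Sis probe was the contrary case. It was undetected in all 3 Bcl9/B9l DKO arrays, at 4.53, 4.56 and 4.79, as in Pygo1/2 DKO crypts, so that no difference between the 2 knockouts could be measured. Sis lies among the neighbours of Pygo2, and what part position had here was not tested. Wars2 was detected in all arrays of both knockouts and in no wt array. Whether the deletions or the position of Wars2 on its chromosome account for this was not tested. Nt5e read 8.82, 10.21 and 10.06 in Bcl9/B9l DKO crypts, a difference between the knockouts of 0.13 ± 0.30 (adjusted p = 0.889), and its Cre-free controls read 8.81, 9.14 and 8.57. Over the interferon genes, Pygo1/2 DKO crypts differed from Bcl9/B9l DKO crypts by a median of 0.08, and Bcl9/B9l DKO crypts from villin.Cre crypts by 0.53. Over the duodenal genes these medians were 0.43 and 0.56. Without Bcl9/B9l DKO array 2 the count of 39 rose to 785, and that array lay with the Pygo1/2 DKO arrays in the mean level of several lists. Over ribosomal protein genes it read 12.08, where the other Bcl9/B9l DKO arrays read 12.55 and 12.62 and the Pygo1/2 DKO arrays 12.28, 12.00 and 12.04.

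**Figure D3:**
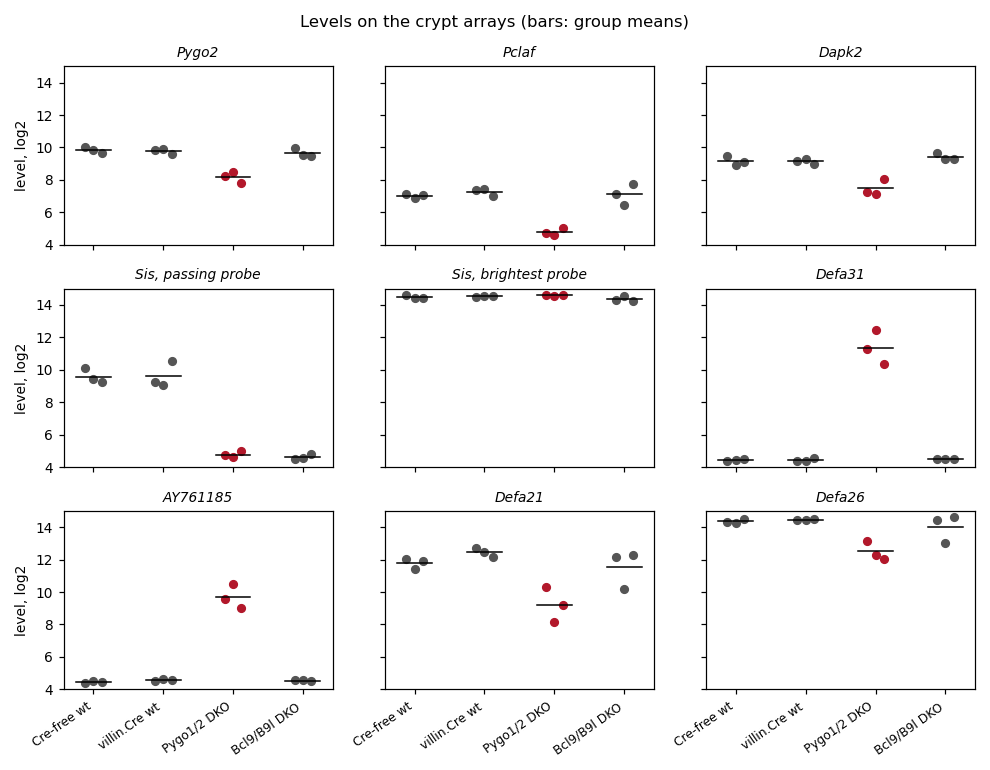
Normalized log2 levels of 9 probes on the 12 crypt arrays, 3 in each group (points; bars are group means). Defa31 and AY761185 stand above background only in Pygo1/2 DKO crypts, the passing Sis probe is at background in both knockouts, and the brightest Sis probe is level in all 4 groups.

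**Figure D4:**
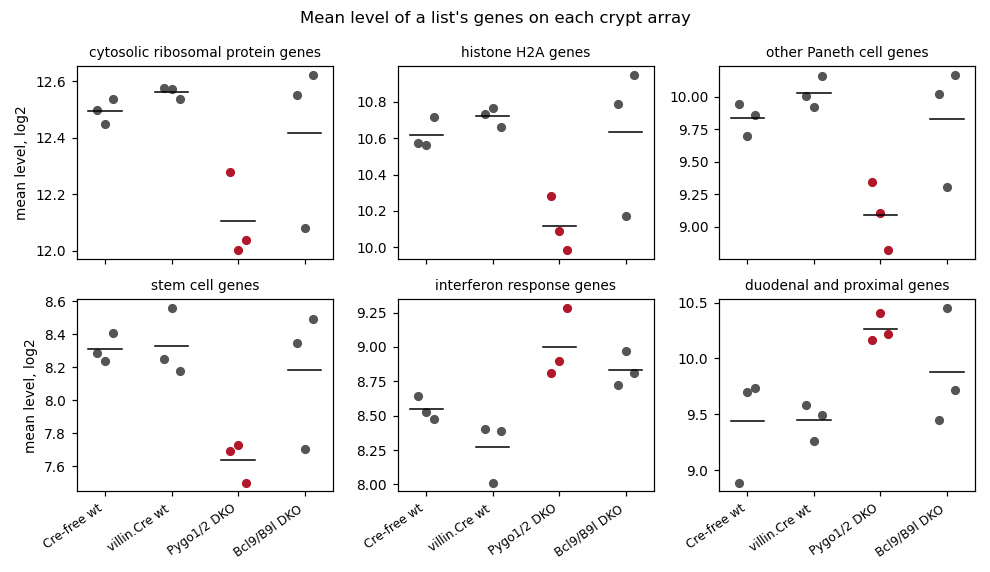
Mean log2 level over the tested genes of 6 lists on each of the 12 crypt arrays (points; bars are group means; vertical axes differ and do not start at 0). The 3 Pygo1/2 DKO arrays lie below both wt groups for the ribosomal protein, histone H2A, Paneth and stem cell lists, and 1 Bcl9/B9l DKO array lies with them.

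Adenomas of ApcMin mice give the same knockout in other samples. In 5 ApcMin Pygo1/2 DKO adenoma arrays against 6 ApcMin adenoma arrays of the first batch, whose mice lack villin.Cre, 26 of 18872 probes (0.138%) passed at 0.01, 11 of them higher. All 41 crypt probes were tested there, and 8 passed, each with the same sign as in crypts, while 21 of the 41 had the same sign at all. Pclaf was at 5.47 to 6.29 (median 5.57) in DKO adenomas and 7.51 to 8.78 (median 8.42) in ApcMin adenomas, a change of -2.51 (adjusted p = 0.000207). Dapk2 was at 6.79 to 7.28 (median 7.16) against 9.37 to 9.91 (median 9.74), a change of -2.63 (adjusted p = 2.98e-07). Neither gene overlapped between groups.

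Pygo2 was at 8.99 to 9.54 (median 9.07) against 9.96 to 10.52 (median 10.34), a change of -1.14 (adjusted p = 0.00317). The passing Sis probe was at 4.46 to 4.56 (median 4.53) and undetected, against 5.50 to 7.70 (median 7.09), at least 2.62-fold lower (adjusted p = 0.00266). The other 4 were unnamed probes, among them ILMN_2710914 at 10.40 to 11.86 (median 10.72) against 4.34 to 4.44 (median 4.40). Defa31 was detected in 2 of 5 DKO adenomas, at 4.41 to 7.46 (median 4.52), and in none of 6 ApcMin adenomas, and did not pass (adjusted p = 0.409). Lars2 differed by -2.40 (adjusted p = 0.0607). The lists had adenoma medians of 0.05 for ribosomal protein, 0.05 for histone H2A, 0.41 for Paneth, 0.34 for stem cell, -0.67 for interferon and -0.24 for duodenal genes, with no member of these 6 lists passing on its brightest probe.

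**Figure D5:**
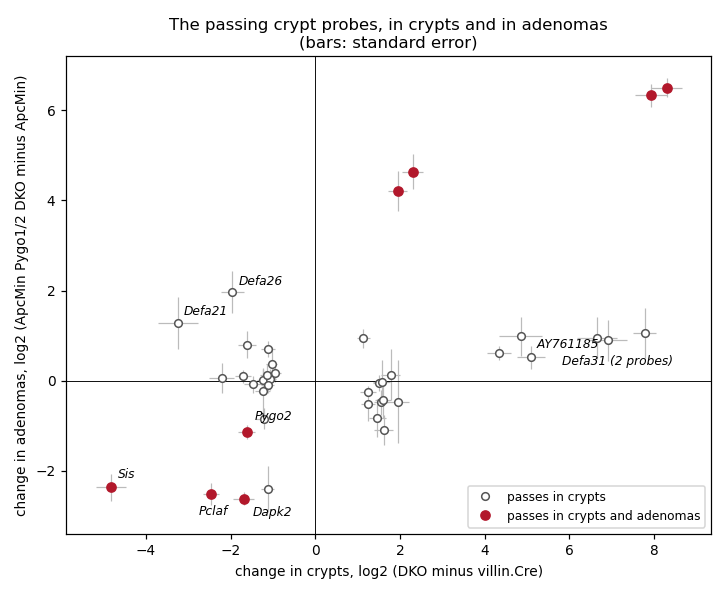
Fitted change in log2 level of Pygo1/2 DKO samples against their controls for the 41 probes that passed in crypts, with standard errors (bars). The horizontal axis gives crypts, with villin.Cre controls, and the vertical axis ApcMin adenomas, with controls that lack villin.Cre. The 8 filled points passed in both tissues, and Pygo2, Sis, Pclaf and Dapk2 are among them, whereas the Defa31 probes did not pass in adenomas. Changes of probes undetected in a whole group, Defa31 and Sis among them, are fitted values that depend on the background level.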

How the data were processed

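RNA of 12 crypt and 20 adenoma samples was hybridised to MouseWG-6 v2.0 arrays. The authors read the arrays with GenomeStudio 2011.1 and deposited, for each of 45281 probes and each array, an intensity that is not normalized. The deposited detection p-value beside it compares the probe with negative controls. The authors also deposited a table of log2 values for 20824 probes (variance-stabilized, quantile-normalized), used here as an alternative, and worked with limma 3.34.9. Whether these values are batch-adjusted is not stated in the labels.

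Arrays were grouped by their titles. For each comparison, neqc (limma 3.58.1, R 4.3.3) removed background by normexp, added an offset of 16, and took log2 after quantile normalization. Probes with a detection p under 0.01 on at least 1 array were fitted with 1 mean per group, empirical Bayes moderation and Benjamini-Hochberg adjustment over all probes, at 0.05 for crypts and 0.01 for adenomas. The 6 arrays were fitted alone, and comparisons with the other crypts in a fit of 12 arrays. Fits were tested on simulated data. The number of arrays limits the precision. Of the 20824 probes, 17608 carry 1 gene symbol, 9 several and 3207 none here. Probes were named from the platform table, with 17585 matched by Entrez identifier to RefSeq (GRCm38.p6), from which promoter windows also come. Genes with a passing probe detected in every array of 1 or both groups were named, with up to 4 members of each list by smallest p and a fixed set of crypt genes; predicted and accession-type symbols were left out. Members, lists and alternatives were chosen with earlier results of these data known. Alternatives were background correction, offset, deposited values, detection filter, array weights, moderation, fitted arrays, a replicate block, threshold and left-out arrays. Figures were drawn with Python 3.11.15 and matplotlib 3.10.9.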

Additional observations from a re-analysis of the deposited data

Results flagged for a closer look

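The change of Pygo1/2 DKO samples against their controls was compared between crypts and adenomas in 1 fit of 17 arrays. The genes were those that passed in crypts, so they were chosen on their crypt changes. The ApcMin controls lack villin.Cre, whereas the crypt controls carry it. At an adjusted p of 0.01 (limma) the changes in crypts and adenomas differed for AY761185 by 4.61 on the log2 scale, and for the 2 Defa31 probes by 5.98 and 5.64. These probes were undetected in all villin.Cre crypts and all ApcMin adenomas, so the fitted sizes depend on the background level and are not measured differences. Cfl2 differed by -1.65, with a change of -1.70 in crypts and 0.10 in adenomas, where it was detected on 1 of 6 ApcMin arrays (median 5.47), so that a fall there could not have been seen. The passing Mdm2 probe differed by 1.41, with 1.25 in crypts and -0.24 in adenomas. Adjusted p-values of the 5 ranged from 1.39e-05 to 0.00641.

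Of 66 adenoma groups checked for 1 array far from the rest, 2 were flagged, and chance flags about 1 in 20. In ApcMin Pygo1/2 DKO adenoma 1 Pygo2 stood at 9.54, with the other 4 between 8.99 and 9.08. In ApcMin Pygo1/2 DKO adenoma 4 Nusap1 stood at 10.25, with the other 4 between 9.29 and 9.57.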

How the results depend on the processing

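The count of passing probes in Pygo1/2 DKO against villin.Cre crypts depended on the processing. In place of 41, it was 117 with no background correction, 128 with an offset of 50, 311 with the deposited log2 values (120 higher and 191 lower, against 21 and 20), 245 with an intensity trend and robust moderation, and 91 with array weights. It was 87 for probes detected in every array of 1 or both groups and 14 with no filter on detection, where 45281 probes were tested. At a threshold of 0.01 it was 10, and at 0.1, added after seeing the data, 413 (133 higher, 280 lower). Left-out arrays gave 9 (without control array 1) to 39, with 12 without control array 2, 15 without DKO array 3 and 23 without DKO array 2. Pygo2 lay between -1.77 and -1.44 in these fits and was -1.61 (adjusted p = 0.0942) with no filter. The 12 crypt arrays fitted together gave 31, of which 18 were among the 41, and leaving out the neighbours of Pygo1 and Pygo2 gave 29. Of 525 recomputed values of 35 named probes, 333 passed and 192 did not, with none reversed. These probes were chosen by passing and their groups do not overlap, so a left-out array could hardly reverse them.

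The arrays of the 2 groups share replicate numbers 1 to 3. Deviations of same-numbered arrays correlated at 0.04, 0.27 and 0.48, so the numbers were not taken to pair them. With the replicate block 239 probes passed in the crypts, all 41 among them, and in adenomas 9.

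Against Cre-free wt crypts the count of 18 was 52 with only the 6 arrays of the comparison, and 12 to 21 with an array left out. Against Bcl9/B9l DKO crypts the count of 39 was 16 with only those 6 arrays, 785 without Bcl9/B9l DKO array 2, and 23 to 34 without any other array. In adenomas the count of 26 was 11 with deposited values and 11 with no filter. It was 15 to 27 with an array left out, except 52 without ApcMin array 5. The cause of these shifts was not tested.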

Other observations

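Of 13 immediate early genes, 8 lay higher in DKO crypts without overlap (61.5%) and none lower, with a median change of 0.47 and none passing. Fosb differed by 1.14 ± 0.30 and Fos by 0.56 ± 0.16 (adjusted p = 0.116 and 0.132). Against Cre-free crypts the median of the list was 0.24. Car1, a carbonic anhydrase known from the colon, read 7.75, 11.88 and 6.15 in DKO crypts, and was undetected in villin.Cre controls (at least 8.27-fold, not passing, adjusted p = 0.161). Normalized with all 12 crypt arrays, it read 12.1, 5.15 and 5.83 in Cre-free wt crypts and 5.48, 9.81 and 8.39 in Bcl9/B9l DKO crypts. The highest level of Car1 on the 12 arrays was thus that of a wild-type array.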
